A study of Mus musculus with 6 samples.

Results

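The genes described here are the kinases, spindle proteins and kinetochore components that carry a cell through mitosis. They were taken as a list of 58 named genes of known mitotic roles, chosen with earlier results of these data known. Probes were named through the RefSeq transcript accession in the scanner files, which gave 57 of the 58 genes at least 1 usable probe, 95 probes in all. No probe was matched to Kif11. Each of the 57 cleared the scanner's background test on every array of both groups, and all 57 were tested, among 23774 genes or unnamed transcripts tested in the series. The list holds members at every step, and they are given below as regulators of CDK1, Polo and Aurora kinases, the chromosomal passenger complex, the spindle checkpoint, anaphase and cohesion, the kinetochore, kinesins, spindle assembly, cytokinesis, and condensin with other proteins of the mitotic chromosome.

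RNA came from NIH3T3 cells, an established line of mouse embryonic fibroblasts, grown in medium with 2% fetal bovine serum. The GGCT cells stably carry a pCX4bsr retroviral vector that expresses GGCT (gamma-glutamylcyclotransferase, an enzyme of glutathione breakdown), and the control cells an empty control vector, 3 arrays of each. The labels number the arrays of each group 1 to 3, and that number is called the replicate below. They do not say whether the arrays come from separate cultures or infections, or whether the infected populations are pools or clones. The p-values therefore measure the spread between these arrays. Total RNA was labelled with Cy3 and hybridised to 1-colour Agilent arrays, and a level below is log2 of the processed spot intensity minus the 75th percentile of that array. A level of 0 is thus the 75th percentile, and levels of different genes are not compared, because each probe has its own response. Every difference is GGCT minus control on this log2 scale, from the brightest probe of the gene.

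In the cell cycle, cyclin B and its kinase CDK1 drive entry into mitosis once CDC25 phosphatases remove the inhibitory phosphates. Kinetochores then assemble on centromeres and bind spindle microtubules, and unattached kinetochores keep the spindle checkpoint active, which holds back the ubiquitin ligase APC/C until every chromosome is attached. Most of these genes are transcribed periodically in dividing cells, with a peak in G2 and M phase, and their messages are low in resting fibroblasts. On bulk RNA, a larger share of cells in G2 and M phase and more message per cell cannot be told apart.

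The targeted gene was read first. Ggct stood at -0.14, 0.20 and -0.16 on the GGCT arrays, against -0.57, -0.72 and -0.66 on the control arrays (replicates 1 to 3). All 3 GGCT arrays were above all 3 control arrays, by 0.62 ± 0.12 on average (SE, n = 3 against 3, limma adjusted p = 0.0111). The labels do not give the species of the GGCT sequence in the vector, and whether this probe reads it was not tested. The fit missed the threshold for Ggct without both arrays of replicate 2, without both arrays of replicate 3 and with no filter on dim probes, up to an adjusted p of 0.108.

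Nearly the whole mitotic list was higher with GGCT. Of 57 genes, 50 rose and 0 fell (limma, Benjamini-Hochberg adjusted p under 0.05 over all 23774 tested), where 17.5% of all features tested were higher and 17.3% lower, and 17.8% of those with a gene symbol were higher. At an unadjusted p under 0.05, 53 were higher and 0 lower, but all features were not counted at that threshold. The median difference of the 57 was 0.87, a fold of 1.83, against 0.02 over everything tested. The middle of the list was narrow, with quartiles of 0.72 and 1.02 and an SD of 0.29 between genes. The GGCT and control arrays did not overlap for 54 genes, all of them higher with GGCT, where 25.4% of all features were non-overlapping and higher. In the same-numbered pairs 56 of 57 were higher in all 3, against 38.7% over all features. At least 2-fold increases were called for 16 genes (3.63% over all features), and these were Bub1, Kif4, Cdc25c, Pttg1, Cdk1, Ncapg, Cenpe, Cenpa, Top2a, Aurka, Ect2, Kif20a, Kif2c, Bub1b, Kif14 and Ccna2. For single genes, an exact 2-sided permutation test over the arrays gave p = 0.1 for 54 of them, which is the smallest that 3 against 3 can give.

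**Figure D1:**
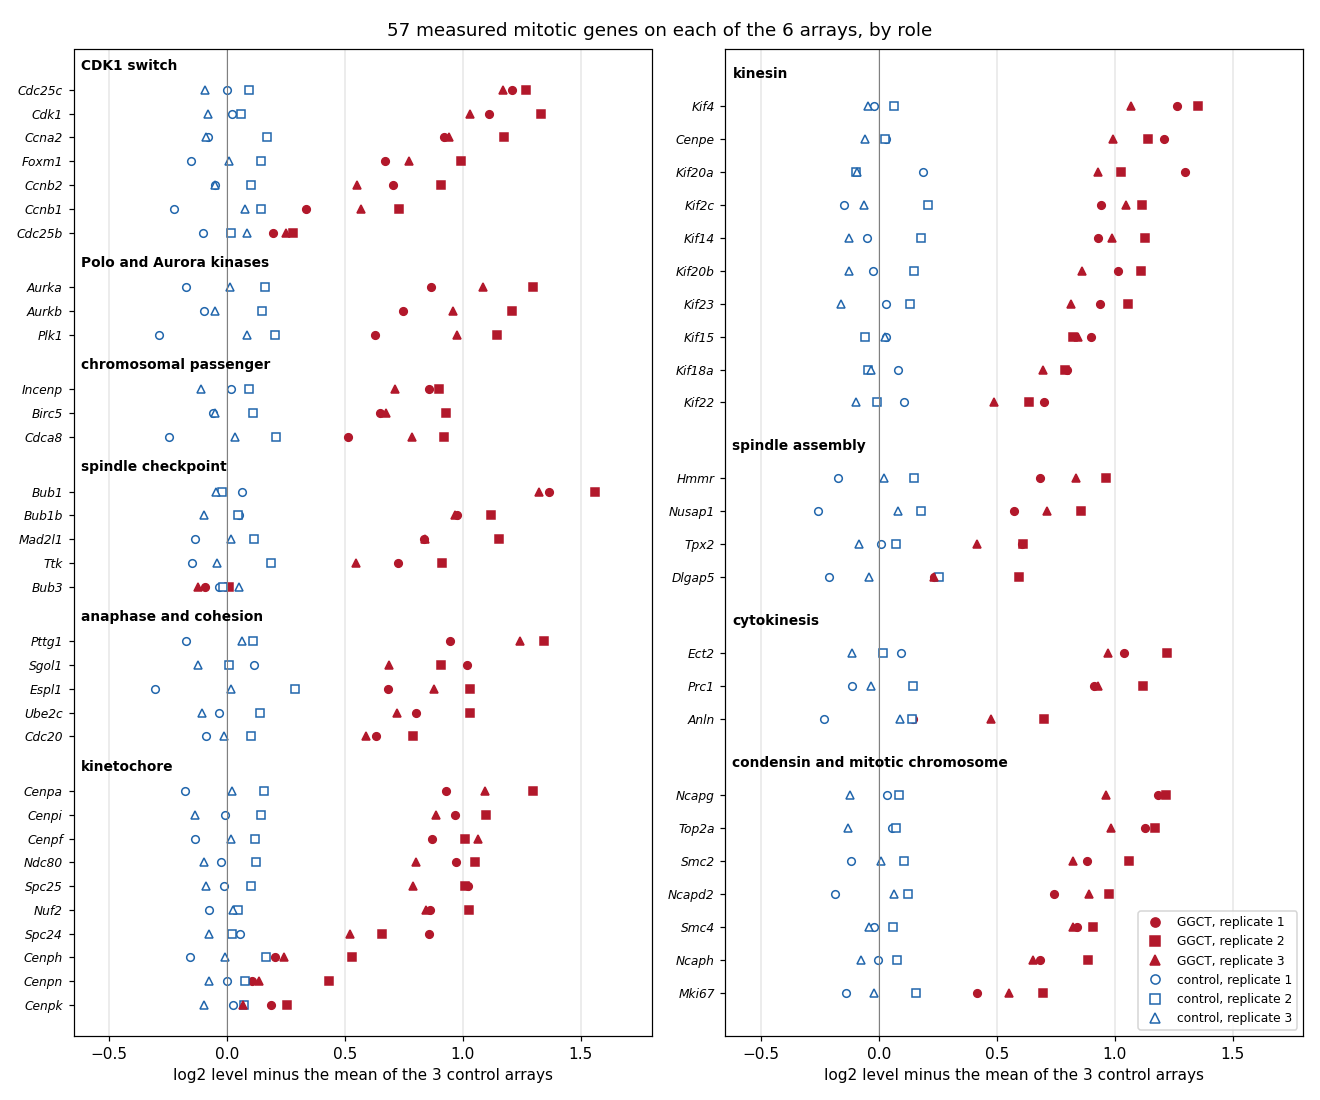
Level of each measured mitotic gene on each array, as log2 level minus the mean of the 3 control arrays (x axis), with genes grouped by role. Filled red symbols are GGCT arrays and open blue symbols control arrays, with a circle, square and triangle for replicates 1, 2 and 3. The red symbols lie to the right of all blue ones for 54 of 57 genes, and Bub3, Cenpk and Dlgap5 overlap.

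The number of calls depended on which replicates entered the fit. Without both arrays of replicate 3 the list had 21 calls, and without both arrays of replicate 2 it had 39, while the medians in those fits were 0.90 and 0.88. Without both arrays of replicate 1 there were 51. Over all features the same fits called 2.78%, 5.46% and 19.1% higher, for replicates 3, 2 and 1 left out. Blocked by replicate number, the fit called 55 of 57 genes higher and 0 lower, against 27.3% and 26.1% of all features. The genes gained were Cdc25b, Cenph, Cenpk, Dlgap5 and Anln, and the pair not called in either fit was Cenpn and Bub3. With the slide as the block Cenpk and Dlgap5 were not called (limma adjusted p = 0.129 and 0.0735), and Cdc25b, Cenph and Anln were. The replicates differed in a way that most of the list shared. GGCT replicate 2 was above the mean of its group for 54 of 57 genes, and control replicate 2 was above the mean of its own for 51 of 57. Such counts were not made over all features, so whether this shift is particular to the list was not tested.

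Replicate 1 of both groups lay on slide 1 and was scanned apart from replicates 2 and 3, which lay on slide 2. The median difference of the list was 0.91 on slide 1 and 0.86 on slide 2, against 0.02 and 0.01 over all features tested. Gene by gene the differences on slide 2 minus those on slide 1 ran from -0.22 to 0.20, with a median of -0.02. The order of the genes was much the same on both slides (Pearson r = 0.95 across 57 genes, a description, since genes of 1 pair of arrays are not independent).

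**Figure D2:**
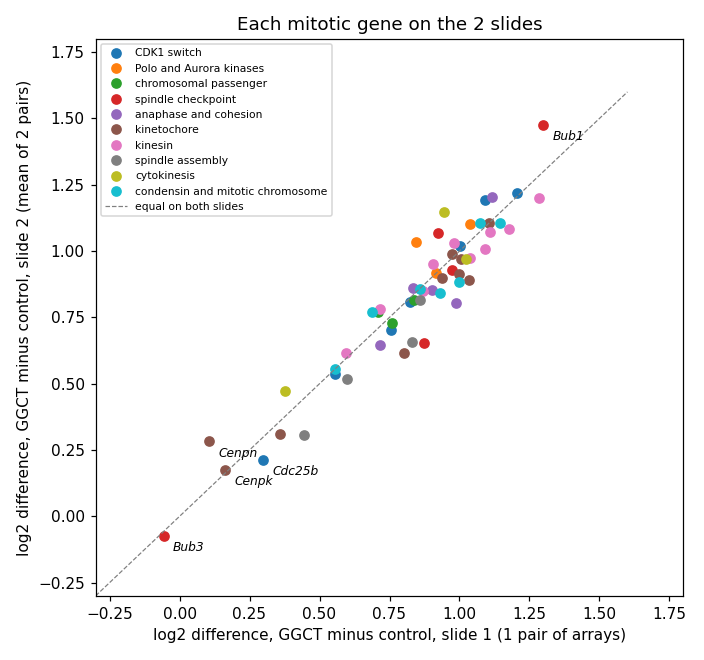
Difference of each mitotic gene on slide 1 (x axis, 1 pair of arrays) and on slide 2 (y axis, mean of 2 pairs), in log2, GGCT minus control, coloured by role. The dashed line marks equal differences. Bub1 lies at the top right, and Bub3, Cenpk, Cenpn and Cdc25b lie at the bottom left on both slides.

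The promoters of these genes show letters that the choice of members did not use. Elements of 2 kinds are textbook features of mitotic promoters, the CHR (cell cycle genes homology region), where the DREAM and B-MYB-MuvB complexes bind, and the CCAAT box, which is bound by NF-Y. RefSeq promoter windows on GRCm38.p6, which run from 250 bases before the annotated start to 50 after it, were matched for 48 of the 58 genes, with 53 windows because some genes have several starts whose windows can overlap. The CHR was searched as TTTGAA or TTTAAA and the NF-Y site as CCAAT, on both strands, and a CHR and a CCAAT box can share at most 1 end base. TTTGAA was found in 67.9% of the member windows, against 17.9% of all 32851 windows. TTTAAA was found in 18.9% against 13.2%, and CCAAT in 77.4% against 37.4%. A window held both a CHR of either form and a CCAAT box in 62.3% of cases, against 10.7% of all windows. A CHR of either form began within 50 bases of the start in 64.2% of member windows, against 8.28% of all windows. The E2F letters TTCCCGC or TTGGCGC were in 24.5% against 6.81%, and the second form can overlap a CCAAT box read on the other strand.

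Windows of 7 genes are shown because they carry the contrast among the members. Cdk1, Ccnb1, Cdc20, Ube2c and Top2a rose and hold a CHR and CCAAT boxes just before the start, Bub1 had the largest difference of the list and no CHR in its window, and Bub3 did not pass the test although its window holds both. The stretches are the 120 bases before the annotated start, 5′ to 3′ on the strand of the gene, with CHR and CCAAT matches on either strand in capitals. They lie at chr10:69352913-69353032 (minus strand), chr13:100786487-100786606 (minus strand), chr4:118437344-118437463 (minus strand), chr2:164769809-164769928 (plus strand), chr11:99024190-99024309 (minus strand), chr2:127831860-127831979 (minus strand) and chr7:131560250-131560369 (plus strand) of GRCm38.p6 for the genes in the order given.
Cdk1: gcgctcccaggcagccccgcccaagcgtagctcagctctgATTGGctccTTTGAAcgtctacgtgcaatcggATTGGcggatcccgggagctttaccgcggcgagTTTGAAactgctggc
Ccnb1: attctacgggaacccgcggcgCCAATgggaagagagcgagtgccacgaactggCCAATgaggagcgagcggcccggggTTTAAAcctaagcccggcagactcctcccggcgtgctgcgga
Cdc20: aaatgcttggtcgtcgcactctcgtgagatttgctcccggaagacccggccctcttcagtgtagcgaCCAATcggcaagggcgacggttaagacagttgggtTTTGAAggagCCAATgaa
Ube2c: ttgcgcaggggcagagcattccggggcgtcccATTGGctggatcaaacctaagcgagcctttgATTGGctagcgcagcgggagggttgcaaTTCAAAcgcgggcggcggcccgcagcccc
Top2a: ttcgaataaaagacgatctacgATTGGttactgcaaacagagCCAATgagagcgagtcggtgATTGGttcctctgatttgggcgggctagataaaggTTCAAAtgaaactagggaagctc
Bub1: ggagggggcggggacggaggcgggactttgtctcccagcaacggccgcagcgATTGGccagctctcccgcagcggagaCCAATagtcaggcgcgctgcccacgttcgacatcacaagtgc
Bub3: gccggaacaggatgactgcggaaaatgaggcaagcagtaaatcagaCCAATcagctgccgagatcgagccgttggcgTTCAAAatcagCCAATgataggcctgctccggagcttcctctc
Such a match describes the letters and is not a measured binding site. Among genes with a window and a measured difference, the 35 with a CHR in a window had a median difference of 0.92 and the 12 without had one of 0.82. Both sets were wide, from -0.07 to 1.23 with a CHR and from 0.17 to 1.42 without. The 35 with a CCAAT box had a median of 0.92 and the 12 without one of 0.88, and these sets overlap as well.

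**Figure D3:**
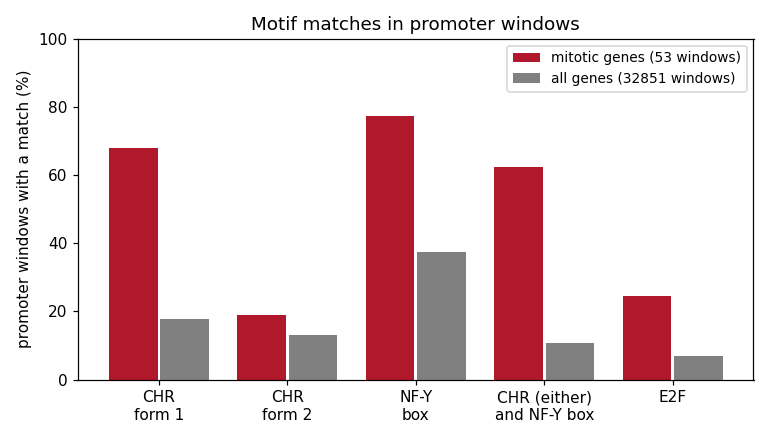
Share of RefSeq promoter windows with at least 1 match (y axis, percent) for the mitotic genes (red, 53 windows) and for all genes (grey, 32851 windows). CHR forms 1 and 2 are the TTTGAA and TTTAAA forms, the NF-Y box is CCAAT, and the red bar is taller than the grey bar for each motif, at 67.9% against 17.9% for the first.

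Regulators of CDK1 rose in 6 of 7 cases (group median 0.81). Cdc25c, the phosphatase that activates CDK1 at mitotic entry, stood at 2.06, 2.12 and 2.02 on the GGCT arrays, against 0.85, 0.94 and 0.75 on the control arrays. Its difference was 1.22 ± 0.09 (SE, limma adjusted p = 0.000309), many times the spread within either group. Cdk1 itself had levels of 2.75, 2.97 and 2.67 with GGCT, against 1.66, 1.70 and 1.55 in control cells, a difference of 1.16 ± 0.11 (limma adjusted p = 0.000775). The lowest GGCT array was thus about a whole log2 unit above the highest control array. Ccna2, cyclin A2 of S and G2 phase, rose by 1.01 ± 0.12. The B cyclins rose less, Ccnb2 by 0.72 ± 0.12 and Ccnb1 by 0.54 ± 0.15 (limma adjusted p = 0.00552 and 0.0328). Ccnb1 stood at 3.19, 3.59 and 3.43 on the GGCT arrays, against 2.63, 3.00 and 2.93 on the control arrays, so the groups are separate but each is spread. It was called in 12 of 21 alternative settings. Foxm1, a transcription factor of G2 and M phase genes, rose by 0.81 ± 0.13, and all its 3 pairs lay between 0.76 and 0.85.

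Cdc25b, the other CDC25 phosphatase of the list, did not pass the test. Its levels were 0.88, 0.96 and 0.93 with GGCT, against 0.58, 0.70 and 0.76 in control cells, a difference of 0.24 ± 0.09 (limma adjusted p = 0.0742, and 0.0276 with the replicate block). Another probe of the gene differed by -0.03.

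The mitotic kinases of the Polo and Aurora families rose in 3 of 3 cases (median 0.97). Aurka, which acts at centrosomes and spindle poles, had levels of 4.34, 4.78 and 4.56 with GGCT, against 3.31, 3.64 and 3.49 in control cells. Its difference was 1.08 ± 0.15 (limma adjusted p = 0.00282). Plk1, which acts at centrosomes, kinetochores and the midbody, stood at 4.03, 4.55 and 4.38 with GGCT, against 3.12, 3.61 and 3.49 in control cells. Replicate 1 was the lowest array of both groups, and the differences within the pairs, 0.92, 0.94 and 0.89, were closer to each other than the arrays of either group were. The limma adjusted p of Plk1 was accordingly 0.0120 without a block and 0.00125 once the fit was blocked by replicate. Aurkb, the kinase of the chromosomal passenger complex, rose by 0.97 ± 0.14. Its partners in that complex rose as well, Incenp, the scaffold, by 0.82 ± 0.10, Birc5 (survivin) by 0.75 ± 0.11 and Cdca8 (borealin) by 0.74 ± 0.16. The 4 genes of that complex spanned 0.74 to 0.97. None of the Polo and Aurora kinases was called without both arrays of replicate 3.

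The spindle checkpoint held both extremes of the list. Bub1, a kinetochore kinase of the checkpoint, stood at 2.06, 2.25 and 2.02 on the GGCT arrays, against 0.76, 0.67 and 0.65 on the control arrays. The difference of 1.42 ± 0.10, a fold of 2.67 (limma adjusted p = 0.000256), was the largest among the 57 and was called in all 21 alternatives. Bub1b, which encodes the checkpoint protein BUBR1, had 1.08, 1.23 and 1.08 with GGCT, against 0.16, 0.16 and 0.01 in control cells, and rose by 1.02 ± 0.09. Mad2l1, which binds and inhibits Cdc20, rose by 0.94 ± 0.13. Ttk, the MPS1 kinase that starts checkpoint signalling, rose by 0.73 ± 0.14, and its further probes differed by 0.94 and 0.80.

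Bub3, the WD40 partner of both Bub1 and BUBR1, was the only one of the 57 with a difference below 0. Its levels were 5.39, 5.49 and 5.36 with GGCT, against 5.45, 5.47 and 5.54 in control cells. The ranges overlap, and the difference was -0.07 ± 0.08 (limma adjusted p = 0.56). Over the 21 alternatives it lay between -0.13 and -0.02 with no call, and the pairs differed by -0.06, 0.02 and -0.17. The other 4 checkpoint genes had differences of 0.73 to 1.42.

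Genes of anaphase and sister cohesion rose in 5 of 5 cases (median 0.86). Pttg1, securin, the inhibitor of separase, had 4.31, 4.71 and 4.61 on the GGCT arrays, against 3.20, 3.48 and 3.43 on the control arrays, a difference of 1.18 ± 0.14 (limma adjusted p = 0.0018). A further probe of Pttg1 gave 1.65. Espl1, separase, which cleaves cohesin, rose by 0.86 ± 0.17 with 2.93, 3.27 and 3.12 on the GGCT arrays, against 1.94, 2.53 and 2.26 on the control arrays, the widest control group of the list. Sgol1 (named Sgo1 in the RefSeq table), the shugoshin that protects centromeric cohesin, rose by 0.87 ± 0.12. Ube2c, a ubiquitin-conjugating enzyme of the APC/C, rose by 0.85 ± 0.12. The APC/C activator Cdc20, with 5.57, 5.73 and 5.53 with GGCT, against 4.85, 5.04 and 4.92 in control cells, rose by 0.67 ± 0.10 (limma adjusted p = 0.00363).

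The kinetochore members were uneven. Of 10 members, 7 rose and 3 did not pass the test. The outer kinetochore's NDC80 complex, which binds microtubules, rose in all of its 4 subunits, Ndc80 by 0.94 ± 0.11, Spc25 by 0.94 ± 0.10, Nuf2 by 0.91 ± 0.09 and Spc24 by 0.68 ± 0.11. Nuf2 stood at 2.30, 2.46 and 2.28 with GGCT, against 1.36, 1.48 and 1.46 in control cells. Of the 4 subunits of the constitutive inner kinetochore on the list, 1 rose. That was Cenpi, at 1.12, 1.26 and 1.05 with GGCT, against 0.15, 0.30 and 0.02 in control cells, a difference of 0.98 ± 0.11 (limma adjusted p = 0.00138). The other inner subunits on the list had differences of 0.32 ± 0.13 for Cenph, 0.22 ± 0.12 for Cenpn and 0.17 ± 0.09 for Cenpk (limma adjusted p = 0.109, 0.188 and 0.209). Among inner subunits outside the list, read with the further kinetochore genes below, some were called higher and some were not called. These values therefore do not describe the layer as a whole.

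Cenpk had levels of 1.40, 1.46 and 1.28 on the GGCT arrays, against 1.23, 1.28 and 1.11 on the control arrays, and these ranges just overlap. The pairs of Cenpk differed by 0.16, 0.18 and 0.17. Cenpk passed in the fit blocked by replicate (limma adjusted p = 0.0473), as did Cenph (0.0122) but not Cenpn (0.0582). The further probes of Cenpk gave 0.20 and 0.21. Cenpa, the histone H3 variant of centromeres, rose by 1.11 ± 0.14, with 3.43, 3.79 and 3.59 with GGCT, against 2.32, 2.65 and 2.52 in control cells. Cenpf, a large protein of the outer corona, rose by 0.98 ± 0.10.

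All 10 kinesins measured rose (median 1.00), from 0.61 to 1.23. Kif4, a chromokinesin that also acts on the central spindle, stood at 0.52, 0.61 and 0.33 with GGCT, against -0.76, -0.68 and -0.79 in control cells, a difference of 1.23 ± 0.10 (limma adjusted p = 0.000521). Cenpe, the kinetochore motor of chromosome congression, had 4.70, 4.63 and 4.48 with GGCT, against 3.52, 3.52 and 3.43 in control cells, and rose by 1.11 ± 0.09. For both genes the gap between the groups was several times the range within either. Kif2c, a microtubule depolymerase, rose by 1.03 ± 0.12, and Kif18a, which dampens chromosome oscillation, by 0.76 ± 0.08. Kif15, which can act beside Kif11 in holding spindle poles apart, stood at -0.86, -0.94 and -0.92 with GGCT, against -1.73, -1.82 and -1.73 in control cells. Its arrays were the tightest of the kinesins, with SDs of 0.04 in GGCT cells and 0.05 in control cells, although its 3 probes gave 0.86, 1.35 and 0.69. The motors of the central spindle and midbody rose too, Kif20a by 1.08 ± 0.14, Kif14 by 1.02 ± 0.11, Kif20b by 0.99 ± 0.11 and Kif23 by 0.94 ± 0.11. Kif22, a chromokinesin, had the smallest difference of the kinesins, 0.61 ± 0.10.

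Spindle assembly factors had the lowest median of the role groups (0.63), and 3 of 4 rose. Hmmr, which localises to spindle poles, rose by 0.83 ± 0.12, Nusap1, which bundles microtubules, by 0.71 ± 0.14, and Tpx2, the activator of Aurora A, by 0.55 ± 0.10. Dlgap5, which stabilises kinetochore fibres, stood at -1.06, -0.70 and -1.06 on the GGCT arrays, against -1.50, -1.03 and -1.33 on the control arrays. GGCT replicates 1 and 3 lie just below control replicate 2, and the difference was 0.35 ± 0.16 (limma adjusted p = 0.148, and 0.0124 with the replicate block).

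Of the 3 cytokinesis genes, 2 rose. Ect2, the exchange factor that activates RhoA at the cleavage plane, had 2.22, 2.41 and 2.16 with GGCT, against 1.28, 1.20 and 1.07 in control cells, a difference of 1.08 ± 0.10 (limma adjusted p = 0.000921). Prc1, which crosslinks the central spindle, rose by 0.99 ± 0.11. Anln, anillin, the scaffold of the contractile ring, had 4.44, 5.00 and 4.77 with GGCT, against 4.06, 4.44 and 4.38 in control cells. Its lowest GGCT array barely exceeded its highest control array, and the difference was 0.44 ± 0.18 (limma adjusted p = 0.104, and 0.00848 with the replicate block). A dimmer probe of Anln gave 0.42 and was called higher (adjusted p = 0.0363 over all probes).

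Condensin and the other proteins of mitotic chromosomes rose in 7 of 7 cases (median 0.87). Top2a, the topoisomerase that disentangles sister chromatids, stood at 4.47, 4.51 and 4.33 with GGCT, against 3.40, 3.42 and 3.21 in control cells, a difference of 1.10 ± 0.10 (limma adjusted p = 0.000732). The 5 condensin subunits of the list spanned 0.74 to 1.12. Smc4, an ATPase of both condensins, had SDs of 0.04 in GGCT cells and 0.05 in control cells and rose by 0.86 ± 0.08, and its partner Smc2 rose by 0.92 ± 0.10. The condensin I subunits rose by 1.12 ± 0.11 for Ncapg, 0.87 ± 0.12 for Ncapd2 and 0.74 ± 0.10 for Ncaph. Mki67, the Ki-67 antigen that coats mitotic chromosomes and serves as a marker of proliferation, had 4.64, 4.92 and 4.77 with GGCT, against 4.08, 4.38 and 4.20 in control cells. Its difference of 0.55 ± 0.12 (limma adjusted p = 0.0148) was at the low end of the list, and it was called in 16 of 21 alternatives.

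**Figure D4:**
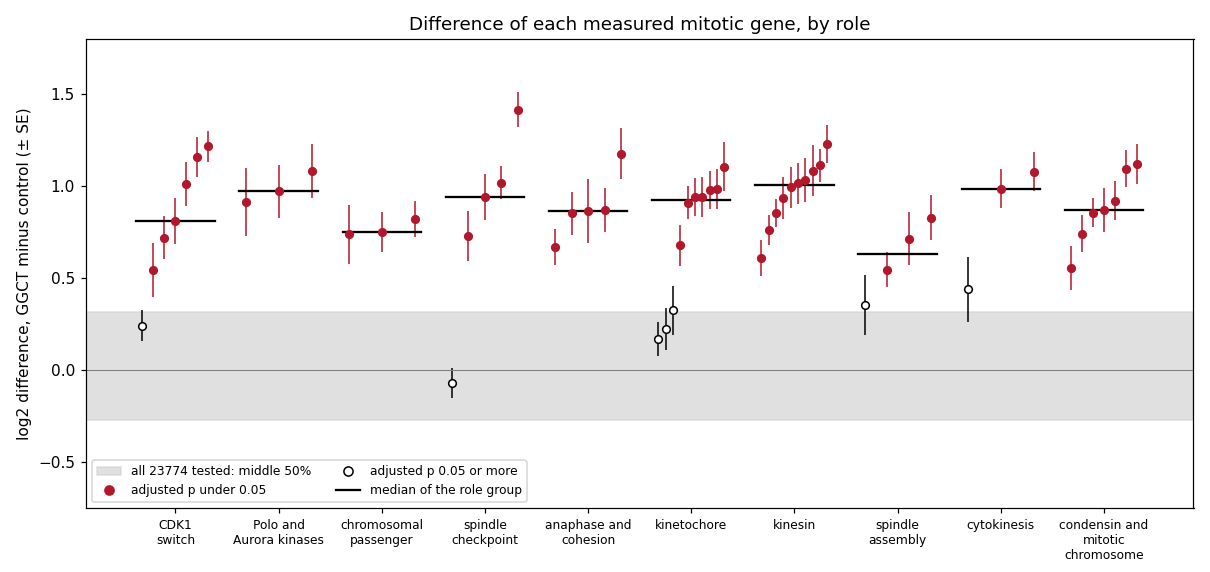
Log2 difference, GGCT minus control, of each measured mitotic gene with its SE (y axis), by role (x axis). Filled red points passed an adjusted p of 0.05, open points did not, black lines are group medians, and the grey band holds the middle 50% of all 23774 features tested (-0.27 to 0.32). The 3 open kinetochore points are Cenpk, Cenpn and Cenph, and the open checkpoint point below 0 is Bub3.

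Further probes gave a second reading for 30 of the 57 genes. Of 37 such probes, 34 were higher, 0 were lower and 3 did not pass the test, and those 3 belong to Cdc25b and Cenpk. All 33 further probes of genes called higher were higher too. With this adjustment over all probes, 17.7% of the brightest probes of all features were higher and 17.4% lower. The typical gap to the brightest probe was 0.07 (median), and 30 of 37 were within 0.15 of it. Probes of a gene read the same RNA samples and are no further replicates.

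Outside these 58 genes further genes of mitosis were read from lists of other regulators, kinetochore proteins and checkpoint proteins. Of 30 other mitotic regulators, 24 rose and 1 fell (median 0.62, against 17.5% higher and 17.3% lower over all features). Those with the smallest p were Plk4, the kinase of centriole duplication (1.28 ± 0.13), Tacc3, a spindle protein (0.98 ± 0.09), Mastl, the Greatwall kinase (0.84 ± 0.08), and Ckap2l (0.78 ± 0.08). Among 25 other kinetochore and centromere genes 16 rose and 1 fell (median 0.51). Cenpw, a histone-fold protein of the inner kinetochore, rose by 1.15 ± 0.09, Ska1, a microtubule-binding subunit, by 1.11 ± 0.10, and Nsl1 of the MIS12 complex by 1.06 ± 0.11. Of 8 other checkpoint genes 2 rose, Kntc1 by 0.92 ± 0.09 and Spdl1 by 0.99 ± 0.21, and Trip13 (0.28) and Zw10 (0.35) did not pass the test. Blocked by replicate, 5 of these 8 were called higher, against 27.3% of all features in that fit. Trip13 and Zw10 were among them (limma adjusted p = 0.0195 and 0.0229).

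The core subunits of the APC/C are present through the cell cycle, and the list read here also holds its regulators. The lower calls of this list were near the background. Of 17 genes 5 rose and 3 fell (median 0.06), which is 29.4% higher and 17.6% lower, against 17.5% and 17.3% of all features. These shares pool core subunits and regulators and do not describe the core subunits alone. The activator Fzr1 (0.98 ± 0.12) and the inhibitor Fbxo5 (0.88 ± 0.11) rose, as did the core subunit Anapc1 (0.49 ± 0.08), and the core subunit Cdc16 fell by 0.52 ± 0.08. In the cohesin and condensin II list, 8 of 15 rose and 1 fell. The cohesin subunit Stag2 stood at 2.10, 2.12 and 2.11 on the GGCT arrays, against 3.00, 2.93 and 3.00 on the control arrays, and fell by 0.87 ± 0.07 (limma adjusted p = 0.000561). Cdca5, sororin, rose by 0.95 ± 0.09, Ncapg2 of condensin II by 0.90 ± 0.12 and Pds5b by 0.71 ± 0.08.

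Of 16 tested genes listed as interphase transport kinesins or their light chains, 0 rose and 5 fell (limma, median -0.17). That is 0% higher and 31.25% lower, against 17.5% and 17.3% of all features. At an unadjusted p under 0.05, 3 were higher and 5 lower, but all features were not counted at that threshold. Blocked by replicate, 4 were higher and 6 lower, against 27.3% and 26.1% of all features. Kif26b was well above background on 1 of 3 GGCT arrays and on all control arrays, so it was tested through its control arrays only. Its levels were -4.69, -5.26 and -4.65 with GGCT, against -0.89, -0.68 and -0.90 in control cells. With only probes well above background on all 6 arrays, 1 gene of this list was higher and 4 were lower, against 17.6% and 16.8% of all features. Kif16b fell by 0.91 ± 0.16, Kif21a by 0.63 ± 0.16 and Kif1c by 0.36 ± 0.10. The list of DREAM and B-MYB-MuvB genes also holds E2F proteins that bind E2F sites rather than the CHR. Of its 14 genes 8 rose (57.1%) and 0 fell, against 17.5% and 17.3% of all features. Lin54, the subunit that contacts the CHR, rose by 0.63 ± 0.10, Lin9, another MuvB subunit, by 0.97 ± 0.16, E2f5 by 0.77 ± 0.09 and E2f8, an atypical E2F repressor, by 1.23 ± 0.11. Of 33 DNA replication genes 21 rose (63.6%) and 0 fell (median 0.54), against the same 17.5% and 17.3% of all features. Cdc7 and its activator Dbf4, the kinase that fires origins, rose by 1.18 ± 0.09 and 0.99 ± 0.10, Cdc6 by 0.94 ± 0.11 and E2f2 by 0.80 ± 0.09. Calls in these lists were fewer without both arrays of replicate 3, at 2 of 30 higher for other mitotic regulators, 4 of 25 for other kinetochore genes, 1 of 8 for other checkpoint genes, 0 of 17 for the APC/C, 1 of 15 for cohesin and condensin II, 2 of 14 for DREAM genes and 6 of 33 for replication genes, and at 1 of 16 lower for transport kinesins, where that fit called 2.78% of all features higher and 4.37% lower. Without both arrays of replicate 2 they were 12, 8, 1, 2, 3, 2 and 7 higher in the same order, and 2 lower for transport kinesins, against 5.46% and 6.81% of all features. Blocked by replicate, the higher calls were 26 of 30 for other mitotic regulators and 18 of 25 for other kinetochore genes. They were 6 of 17 for the APC/C, with 4 lower, and 9 of 15 for cohesin and condensin II. DREAM genes had 10 of 14 and replication genes 25 of 33, where that fit called 27.3% of all features higher and 26.1% lower. The medians of these lists were not tested against that of the mitotic genes.

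**Figure D5:**
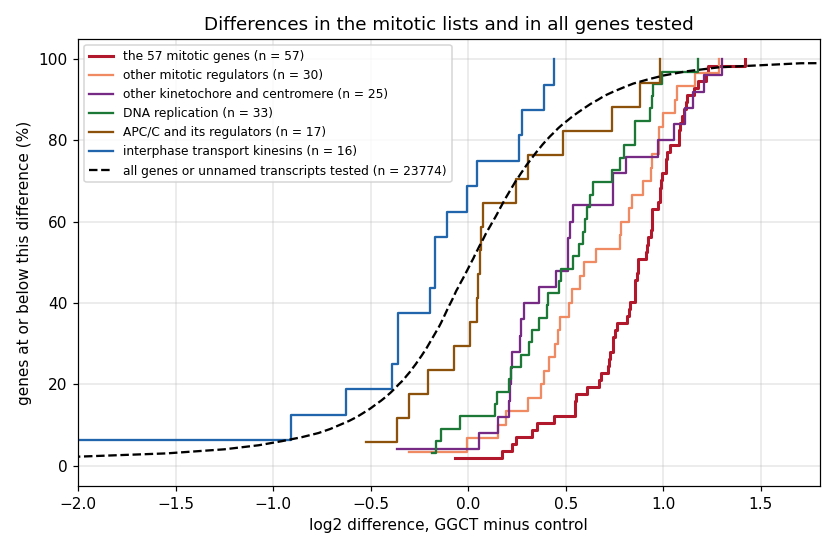
Cumulative share of genes (y axis, percent) at or below a given log2 difference, GGCT minus control (x axis), for the 57 mitotic genes, for 5 other lists and, dashed, for all 23774 features tested. The x axis starts at -2, so Kif26b lies off its left end. The curve of the mitotic genes lies furthest to the right over most of its height, with a median of 0.87, and that of the interphase transport kinesins furthest to the left over most of its height, with a median of -0.17.

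The labelled cell type was checked on marker genes. All 8 fibroblast markers were well above background on all 6 arrays, and their summed level ran from 880.5 to 1109 in GGCT cells and from 1196 to 1439 in control cells, in units of the array's 75th percentile. Col1a1 fell by 0.99 ± 0.10, Pdgfrb by 0.94 ± 0.10, Col1a2 by 0.69 ± 0.12 and Col3a1 by 0.57 ± 0.13, and Pdgfra rose by 0.86 ± 0.16. The sums of the 5 epithelial markers were 0.236 to 0.337 in GGCT cells and 0.149 to 0.201 in control cells, and those of the 4 endothelial markers 0.235 to 0.277 and 0.136 to 0.174. Of these lists Krt8 rose by 1.18 ± 0.24 and Pecam1 by 0.43 ± 0.13. Cdh5 was well above background on no control array and was tested through its GGCT arrays only. With each control array taken as no lower than its dimmest detected signal, Cdh5 was 2.18-fold higher with GGCT. That value is a rough estimate, since the dimmest signal of an array is not a detection limit of this probe. Epcam, Cdh1, Kdr and Tek were well above background on no array. The 5 leukocyte markers summed to 23.5 to 29.2 in GGCT cells and 23.8 to 32.6 in control cells, and the 5 neural and glial markers to 0.556 to 0.835 and 0.521 to 0.797. Ptprc, Olig2 and Sox2 were well above background on no array. Cd68 was called lower and Gfap higher. The part of these markers in the mitotic differences was not tested.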

How the data were processed

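Gene expression of GGCT and control NIH3T3 cells was measured on 3 arrays each. The deposited scanner files hold spot intensity values from Agilent Feature Extraction 12.1.0.3, background-subtracted and detrended within each array, per the file headers. The deposited series table holds log2 values with medians of -3.88 to -3.70 per array. Over the 16401 brighter probes compared they track the scanner values (correlation 1 on each array), and dimmer probes were not compared. How the deposited values were made is not stated in the labels. Per array, 54.6% to 61.7% of probes were well above background, the 75th percentile of intensity was 380.0 to 471, and no spot was saturated.

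Control spots (3671 of 62976) and outlier-flagged spots (578 over 6 arrays) were left out, and 56570 of 56605 probes remained. Unversioned RefSeq accessions named 34504 of them (60.99%) through the GRCm38.p6 gene table. The array's own grid names another build, so the table served for names only, and promoter coordinates are those of the RefSeq promoter table. Each array was shifted by its 75th percentile of log2 intensity. A gene's brightest probe was tested if all 3 arrays of either group had it well above background. The test was limma 3.58.1 in R 4.3.3 (lmFit, eBayes, 2-sided, Benjamini-Hochberg over 23774 features). The procedure was tested on simulated data with independent noise on each array, which hold no shift shared by arrays of the same number. The number of arrays limits the precision.

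Arrays with the same number shifted together around the means of their groups (correlations 0.731, 0.453 and 0.358 across genes), so the numbers were taken to pair the arrays, although replicates 2 and 3, which share a slide, correlated almost as well across numbers (0.342 and 0.299). Blocked values stand beside each member whose call changed. All 58 members are named, with Ggct, the cell type markers and up to 4 genes per further list with the smallest p, of which 1 is not reported here. Members and lists were chosen with earlier results of these data known.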

Additional observations from a re-analysis of the deposited data

How the results depend on the processing

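Over 21 alternatives the median difference of the 57 genes stayed between 0.84 and 0.93, no gene was called lower, and none of the 57 differences changed sign. Of 1197 values (57 genes under 21 settings) 1129 kept their side of the threshold, 54 lost the call and 14 gained it, and 19 genes were called in every setting. Leaving out arrays gave 21 to 51 members called higher, and other settings gave 47 to 55. By role the leave-out ranges were 2 to 6 for CDK1 regulators, 0 to 3 for Polo and Aurora kinases, 1 to 3 for the passenger complex, 2 to 4 for the checkpoint, 1 to 5 for anaphase, 4 to 7 for kinetochores, 6 to 10 for kinesins, 0 to 3 for spindle assembly, 1 to 3 for cytokinesis and 4 to 7 for mitotic chromosomes. The lowest counts came without both arrays of replicate 3, a fit on 4 arrays. Over all features, leaving out arrays gave 692 to 4573 higher and 1089 to 4539 lower. No filter on dim probes gave 2218 and 2493, array weights 6633 and 6193, the slide block 6562 and 6191, and the replicate block, which pairs the arrays, 6490 and 6195. The replicate block changed no call among the members other than the 5 named gains. For the other settings the cause was not tested. Groups of 3 arrays limit every SE, and all 57 genes were well above background.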
